A study of Mus musculus with 13 samples.

Results

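The 9 genes described here encode parts of the interferon receptor, the STAT and IRF transcription factors downstream of it, and the SOCS feedback inhibitors: *Ifnar1*, *Ifnar2*, *Stat2*, *Stat3*, *Irf1*, *Irf7*, *Irf9*, *Socs1* and *Socs3*. They were chosen by gene symbol, with earlier results of these data known, and all 9 symbols were found among the 13222 genes of the table. Expression was measured by bulk 3′ RNA sequencing of 4T1-Thy1.1 cells, a BALB/c mouse mammary carcinoma line used as a model of triple negative breast cancer. All cells, the controls included, carried the Thy1.1 transgene and were cultured in the same serum-containing medium. Libraries came from untreated cells (control, n = 3), cells given 200 ng/mL of the anthracycline doxorubicin (DOX, n = 4), cells given 200 ng/mL DOX with 25 ng/mL of the cytokine IL-17A (DOX+IL-17A, n = 3) and cells given 25 ng/mL IL-17A (IL-17A, n = 3), all at 48 hours. Each group is the same cell line in culture, with no host immune cells, and nothing in the sources used here says which wells share a plate or a day.

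Type I interferons bind a receptor made of IFNAR1 and IFNAR2, whose associated kinases phosphorylate STAT proteins. STAT2 then enters the factor ISGF3 with IRF9, which binds the interferon-stimulated response element (ISRE) of target genes, among them *Irf7*, whose product amplifies interferon production. IRF1 acts at overlapping sites and is also induced through NF-kappa B, a pathway that IL-17A can activate. STAT3 is the main factor downstream of IL-6 family cytokines, and SOCS1 and SOCS3 are induced by STATs and block the receptors and kinases that activate them.

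Values are TMM-normalised, which means reads scaled by library size and by a factor for RNA composition. Reads on listed genes ranged from 4445592 to 16930600 per library (median 9077387), and 3 reads, taken as the limit of detection, were worth 0.183 to 0.613 normalised units; this limit covers counting error only. A gene was called at an adjusted p below 0.05 in limma if it also changed more than 2-fold, with the fold change on the log2(value + 1) scale, which understates the change of low genes. A single gene's exact permutation test cannot go below p = 0.0571 for 4 libraries against 3, or 0.1 for 3 against 3. Control replicate 1 stood apart from the rest of its group, with a mean correlation of 0.901 with the other controls, against 0.935 and 0.946. It was the highest control for *Stat2*, *Irf7* and *Irf9* and the lowest for *Stat3*, *Irf1* and, at 0 reads, *Socs1*. Summed muscle and red blood cell markers (10 of 12 listed) reached 282.9 in DOX replicate 1, against 4.84 to 44.5 in the other libraries. All 10 epithelial markers were listed, and their sum was 1065 to 1371 in libraries with DOX and 1980 to 2527 in those without. Of 11 immune cell markers 4 were listed, with sums of 27.1 to 51.4 under DOX and 10.6 to 21.3 elsewhere, and *Cd3e*, *Ms4a1*, *Adgre1*, *Lyz2* and *Ncr1* were not listed. The part of these markers in the results on DOX was not tested.

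In the GENCODE M21 annotation of mm10 all 9 members are protein coding. *Ifnar1* lies at chr16:91485238-91507441 and *Ifnar2* at chr16:91372783-91405589, both on the plus strand. *Stat2* lies at chr10:128270559-128292849 (plus) and *Stat3* at chr11:100885098-100939540 (minus). The IRF genes lie at chr11:53770014-53778374 (*Irf1*, plus), chr7:141262706-141266481 (*Irf7*, minus) and chr14:55603571-55610030 (*Irf9*, plus). The SOCS genes lie at chr16:10782240-10785536 (*Socs1*, minus) and chr11:117966079-117970047 (*Socs3*, minus).

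Promoter letters are shown for the called members *Stat2*, *Irf7* and *Socs1*, and for *Irf1*, which had both GAS and kappa B letters (marked below). They are also shown for *Ifnar2*, whose libraries with IL-17A all lay above those without, though it was not called. The stretches lie before the start site, are given from 5′ to 3′ on the strand of the gene and come from RefSeq (GRCm38.p6), whose table held 11 promoters for the 9 genes (*Irf1* and *Irf9* had a pair each), each covering 250 bases before to 50 after the start. Capitals mark ISRE letters (GAAANNGAAA on either strand) in *Stat2* and *Socs1*, GAS letters (TTCNNNGAA, the same on both strands) in *Ifnar2* and *Irf1*, and, as the second run of capitals in *Irf1*, a kappa B site.
Stat2: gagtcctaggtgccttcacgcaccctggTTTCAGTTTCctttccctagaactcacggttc
Socs1: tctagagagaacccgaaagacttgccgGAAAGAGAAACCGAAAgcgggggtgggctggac
Irf7: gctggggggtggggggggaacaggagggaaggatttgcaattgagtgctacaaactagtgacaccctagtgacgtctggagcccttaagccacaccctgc
Irf1: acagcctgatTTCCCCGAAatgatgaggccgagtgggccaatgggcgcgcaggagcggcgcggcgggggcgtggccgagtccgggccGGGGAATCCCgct
Ifnar2: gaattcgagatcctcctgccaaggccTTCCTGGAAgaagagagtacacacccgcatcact
These are chr10:128270248-128270307 for *Stat2* (plus strand), chr16:10785587-10785646 for *Socs1* (minus strand), chr7:141266485-141266584 for *Irf7* (minus strand), chr11:53769914-53770013 for *Irf1* (plus strand) and chr16:91372543-91372602 for *Ifnar2* (plus strand), all upstream of both the RefSeq start and the start of the gene in GENCODE M21. *Socs1* held a pair of overlapping ISRE matches, starting 83 and 77 bases before its start site. ISRE letters were found in 3.44% of all 32851 promoters of this length, GAS letters in 8.30% and a kappa B site in 8.46%. GAS letters were also found across the start of *Ifnar1* and 154 bases before that of *Socs3*. The windows of *Irf7*, *Irf9* and *Stat3*, and the *Irf1* window not shown here, held none of the 3 motifs. This says only that these letters are not in those windows.

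**Figure D1:**
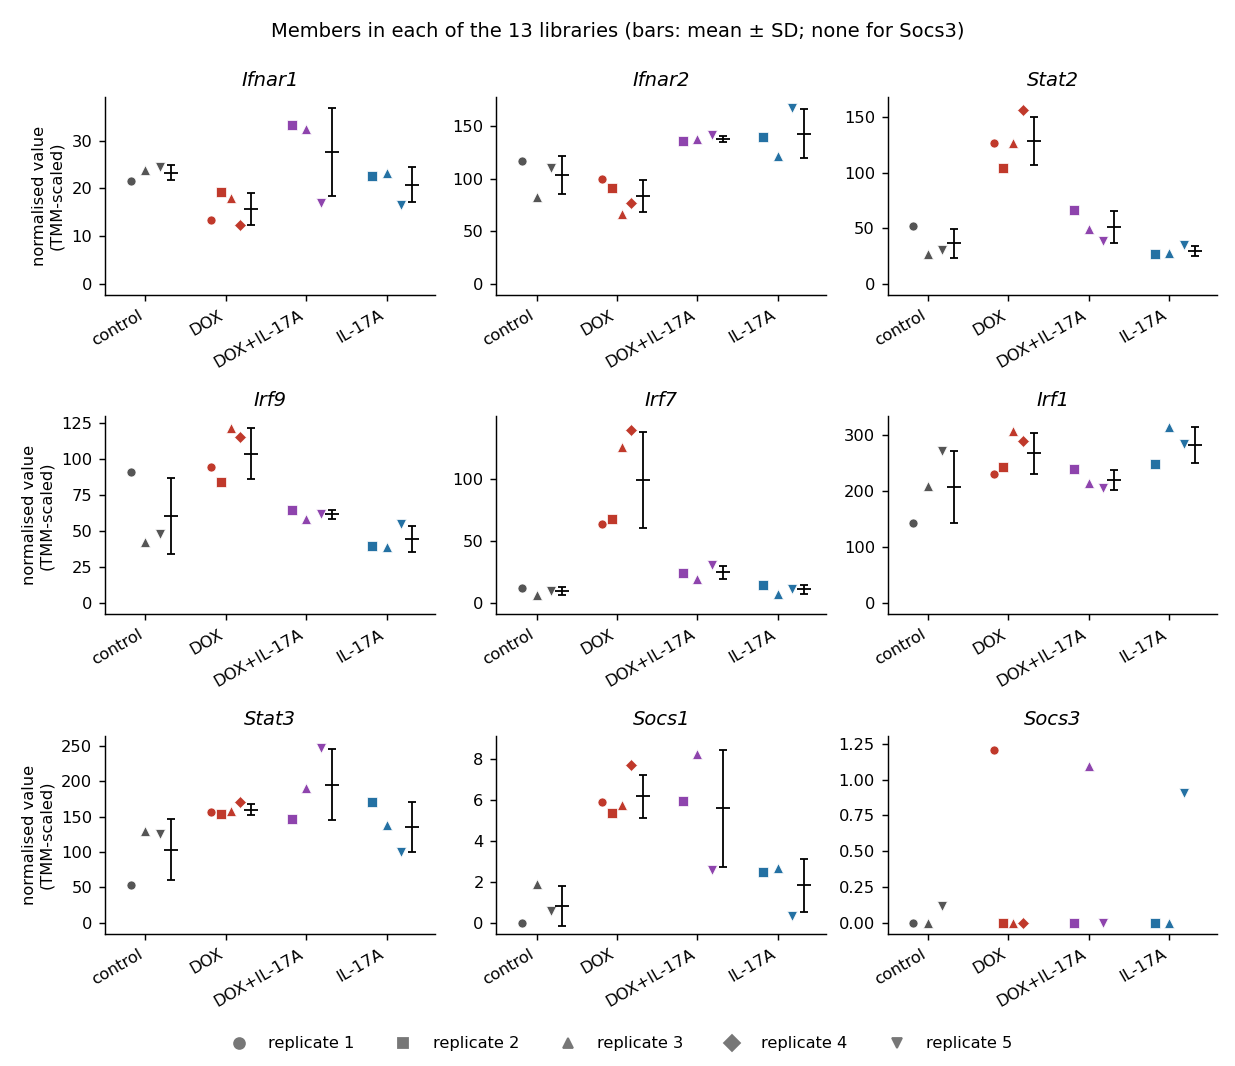
TMM-normalised value (y axis, from 0) of each of the 9 genes in each of the 13 libraries by condition (x axis); symbols give the replicate number and black bars the mean ± SD, left out for *Socs3*, which had 0 reads in 9 libraries. *Stat2* and *Irf7* stand highest in the 4 DOX libraries and lower where IL-17A was added, and *Ifnar2* is higher in the 6 libraries with IL-17A than in the 7 without.

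The receptor genes did not pass the test in any comparison. *Ifnar1*, encoding the chain that binds the kinase TYK2, was at 21.5, 23.9 and 24.4 in control replicates 1, 3 and 5, and at 13.4, 19.2, 17.9 and 12.3 in DOX replicates 1 to 4. It was at 33.3, 32.4 and 16.9 in DOX+IL-17A replicates 2, 3 and 5, and at 22.5, 23.3 and 16.6 in the IL-17A libraries of those numbers. All 4 DOX libraries lay below all 3 controls, while the DOX+IL-17A libraries spread from the level of DOX to above that of any control. The log2 fold change was -0.56 ± 0.28 (SE) for DOX against control (adjusted p = 0.162) and 0.73 ± 0.28 for DOX+IL-17A against DOX (adjusted p = 0.585).

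*Ifnar2*, encoding the other chain of the receptor, separated the libraries by IL-17A. Its values were 117, 83.0 and 110 in control, 99.6, 91.5, 66.1 and 76.5 in DOX, 136, 137 and 141 in DOX+IL-17A, and 140, 121 and 167 in IL-17A. The 6 libraries with IL-17A (121 to 167) all lay above the 7 without (66.1 to 117), as did those of 16 of the 12319 genes tested (0.13%). The group means were 103 ± 18 (SD) in control, 83.4 ± 15.0 in DOX, 138 ± 2.94 in DOX+IL-17A and 143 ± 23.2 in IL-17A, and the last 2 did not differ beyond their spread. In the limma fit to the TMM-normalised values the fold change stayed under 2 and the adjusted p above 0.05 in each pair of groups. The log2 fold change was 0.74 ± 0.20 for DOX+IL-17A against DOX (adjusted p = 0.208) and 0.46 ± 0.21 for IL-17A against control (adjusted p = 0.959). For DOX+IL-17A against control it was 0.43 ± 0.21 (adjusted p = 0.174), and 0.60 with scaling by library size (adjusted p = 0.0421). The effect of IL-17A averaged over cells with and without DOX, a contrast added after these values were seen, was 0.60 ± 0.15 (adjusted p = 0.176), while 19 genes (0.154%) were called higher in it at the adjusted p alone. DESeq2 gave an adjusted p of 0.0387 for *Ifnar2* in this contrast, and the alternatives spanned 0.0387 to 0.419.

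DOX raised the ISGF3 gene *Stat2* and *Irf7*, whose product amplifies interferon production, and both genes were lower where IL-17A was added to DOX. *Stat2* was at 51.6, 26.9 and 30.8 in control and at 127, 104, 126 and 156 in DOX. It was at 66.7, 49.4 and 38.1 in DOX+IL-17A and at 26.5, 27.8 and 34.5 in IL-17A. The DOX libraries did not overlap with those of any other group, and DOX+IL-17A overlapped with control. The mean rose 3.52-fold from 36.4 ± 13.3 (SD, n = 3) to 128 ± 21.3 (n = 4) in DOX (log2 fold change 1.83 ± 0.26 SE, adjusted p = 0.000254). With IL-17A added to DOX the mean was 51.4 ± 14.4, 0.400 of that in DOX (log2 fold change -1.33 ± 0.26, adjusted p = 0.0353). In bulk RNA a change in the share of cells that respond and a change in RNA per cell cannot be told apart.

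*Irf7* had the largest log2 fold change with DOX among the members at the pseudocount of 1, while at a pseudocount of 0.1 *Socs1* (3.59) was above *Irf7* (3.33). It was at 12.7, 6.33 and 9.67 in control and at 63.8, 67.4, 126 and 139 in DOX. It was at 24.5, 19.9 and 30.5 in DOX+IL-17A and at 14.6, 7.39 and 11.7 in IL-17A. The DOX libraries lay above all others, DOX+IL-17A lay between DOX and the groups without DOX, and DOX replicates 1 and 2 were well below replicates 3 and 4. The mean rose 10.3-fold with DOX, from 9.56 ± 3.18 to 98.9 ± 38.9 (log2 fold change 3.20 ± 0.34, adjusted p = 2.44e-05). It was 25.0 ± 5.34 in DOX+IL-17A, which was 0.252 of DOX (log2 fold change -1.88 ± 0.34, adjusted p = 0.0203) and 2.61 times control (1.32 ± 0.36, adjusted p = 0.0207). Control and IL-17A (11.3 ± 3.65) did not differ beyond their spread. The gene overlaps *Phrf1* on the opposite strand.

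The decreases of *Irf7* and *Stat2* with IL-17A in DOX-treated cells depended on the fit and on single libraries. With the replicate number as a block neither passed (adjusted p = 0.147 for *Irf7* and 0.269 for *Stat2*). The decrease of *Irf7* kept its direction but lost its call without DOX replicate 3 (adjusted p = 0.113), DOX replicate 4 (0.113), or DOX+IL-17A replicate 2 (0.0903), replicate 3 (0.172) or replicate 5 (0.0624), with log2 fold changes between -2.03 and -1.69. That of *Stat2* lost its call without DOX replicate 1 (adjusted p = 0.0748), 3 (0.128) or 4 (0.180), DOX+IL-17A replicate 3 (0.188) or 5 (0.172), or IL-17A replicate 2 (0.0511) or 3 (0.0597), with log2 fold changes between -1.33 and -1.13. The rise of *Irf7* in DOX+IL-17A over control lost its call without control replicate 3 (adjusted p = 0.0639), DOX+IL-17A replicate 2 (0.0560) or DOX+IL-17A replicate 5 (0.0655). The rises of *Irf7* and *Stat2* with DOX passed the test whichever of the 13 libraries was left out.

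**Figure D2:**
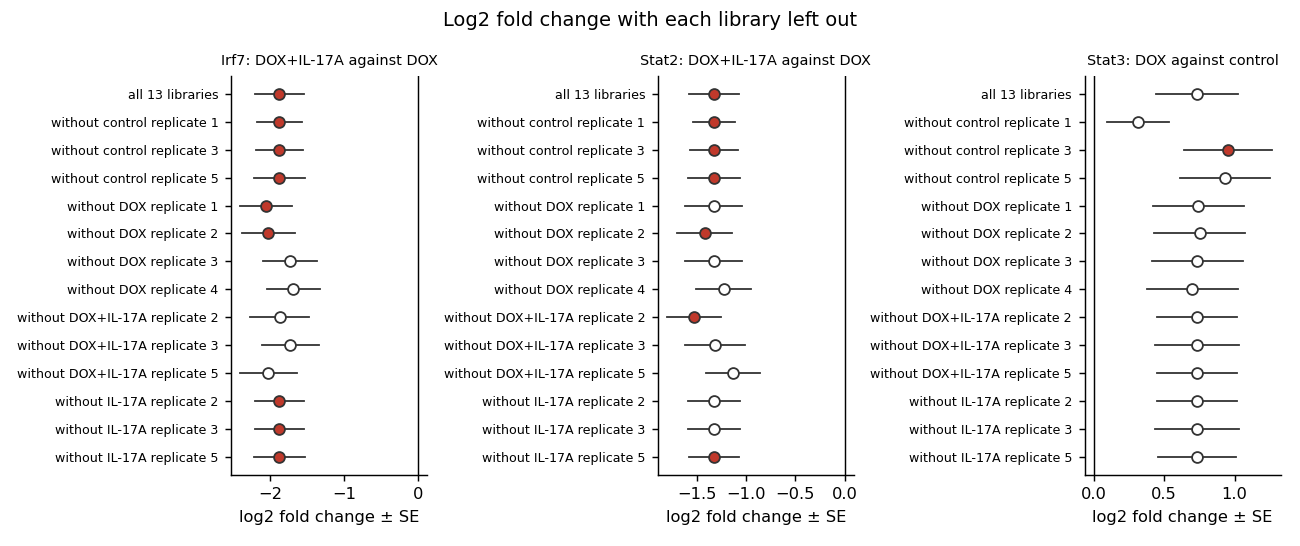
Log2 fold change ± SE (x axis) of *Irf7* and *Stat2* for DOX+IL-17A against DOX and of *Stat3* for DOX against control, for the whole set of 13 libraries and for sets lacking 1 library (rows); filled points have an adjusted p under 0.05. The decreases of *Irf7* and *Stat2* stay below 0 in every row, and the value of *Stat3* falls from 0.73 to 0.32 without control replicate 1.

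*Irf9*, which encodes the DNA-binding part of ISGF3, moved less. It was at 90.8, 42.8 and 48.0 in control and at 94.8, 84.0, 122 and 115 in DOX. It was at 65.0, 58.9 and 61.9 in DOX+IL-17A and at 39.8, 39.3 and 54.8 in IL-17A. Control replicate 1 lay within the range of DOX, while the other controls lay below it. The mean was 1.72 times higher with DOX (60.5 ± 26.4 in control, 104 ± 17.6 in DOX), which passed the adjusted p alone (log2 fold change 0.84 ± 0.25, adjusted p = 0.0267) and not the fold limit. Without control replicate 1 the log2 fold change was 1.16 and passed both limits (adjusted p = 0.00121), whereas it missed the adjusted p without control replicate 3 (0.0997) or 5 (0.104) or DOX replicate 3 (0.0781) or 4 (0.0727). All DOX+IL-17A libraries lay below all DOX libraries, with a log2 fold change of -0.72 ± 0.25 that did not pass (adjusted p = 0.458). *Irf9* overlaps *Rnf31* on the same strand, so reads near that gene cannot be assigned with certainty.

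*Irf1* and *Stat3* were detected in every library and were not called in any comparison of the limma fit to the TMM-normalised values of all 13 libraries. *Irf1* was at 143, 208 and 270 in control, 230, 243, 307 and 289 in DOX, 239, 214 and 205 in DOX+IL-17A, and 248, 313 and 284 in IL-17A. These groups overlapped, except that each DOX+IL-17A library lay below each IL-17A library. Its log2 fold change was 0.41 ± 0.21 for DOX against control (adjusted p = 0.178), 0.48 ± 0.22 for IL-17A against control (adjusted p = 0.959) and -0.28 ± 0.21 for DOX+IL-17A against DOX (adjusted p = 0.994). *Stat3* was at 53.1, 130 and 126 in control, 156, 154, 159 and 171 in DOX, 147, 191 and 247 in DOX+IL-17A, and 170, 138 and 99.8 in IL-17A. Libraries with DOX all lay above the controls, of which replicate 1 was less than either of the others by a wide margin. The log2 fold change was 0.73 ± 0.29 for DOX against control (adjusted p = 0.0792), 0.32 without control replicate 1 (adjusted p = 0.329) and 0.95 without control replicate 3 (adjusted p = 0.0371). For DOX+IL-17A against control it was 0.99 ± 0.31, which passed the adjusted p alone (0.0375), and 0.57 (adjusted p = 0.0946) without control replicate 1. It passed both limits without control replicate 3 (1.21), control replicate 5 (1.19) or DOX+IL-17A replicate 2 (1.18), and missed the adjusted p without any 1 of the 4 DOX libraries (0.0501 to 0.0525) or without DOX+IL-17A replicate 3 (0.0932) or 5 (0.123). *Stat3* overlaps *Stat5a* on the opposite strand.

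*Socs1*, a feedback inhibitor of Janus kinases, was higher than in control both with DOX and with DOX+IL-17A. It was at 0, 1.89 and 0.589 in control (0, 31 and 5 reads) and at 5.88, 5.36, 5.73 and 7.69 in DOX (73, 49, 41 and 86 reads). It was at 5.93, 8.24 and 2.56 in DOX+IL-17A (29, 83 and 41 reads) and at 2.48, 2.67 and 0.328 in IL-17A (22, 17 and 4 reads). All 7 libraries with DOX lay above all 3 controls, and DOX+IL-17A replicate 5 lay at the level of the IL-17A libraries. Against IL-17A alone, DOX+IL-17A did not pass for *Socs1* (1.25 ± 0.49, adjusted p = 0.106). The log2 fold change was 2.10 ± 0.46 for DOX against control (adjusted p = 0.00517) and 1.88 ± 0.49 for DOX+IL-17A against control (adjusted p = 0.0167). The latter call was lost without control replicate 5 (adjusted p = 0.0505) or DOX+IL-17A replicate 2 (0.0564) or 3 (0.0739). DOX+IL-17A and DOX differed by -0.22 (95% interval -1.19 to 0.75, adjusted p = 0.998), an interval that does not show them to be alike.

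*Socs3*, a feedback inhibitor of signalling through the gp130 receptor chain, was hardly detected. It had 15 reads in DOX replicate 1 (1.21 normalised units), 11 in DOX+IL-17A replicate 3 (1.09), 11 in IL-17A replicate 5 (0.902) and 1 in control replicate 5 (0.118), and 0 in the other 9 libraries. It did not pass the filter on low values and was not tested. A count of 0 allows up to 3 reads, so differences below that were not detectable at this depth.

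The members were chosen with earlier results of these data known, so the shares that follow are descriptions and not a test of the set. Set against all genes, 3 of the 8 tested members (*Stat2*, *Irf7* and *Socs1*) were called higher with DOX than in control, where 9.15% of tested genes were. With *Irf9*, 4 of 8 passed the adjusted p alone, against 12.4%. In either direction, 5 of 8 had libraries that did not overlap, against 33.7%, and of these *Ifnar1* was lower with DOX. With DOX+IL-17A against control, 2 of 8 were called higher (*Irf7* and *Socs1*; background 6.95%), and 3 of 8 at the adjusted p alone (background 9.37%). These comparisons share the control libraries. With IL-17A added to DOX, 2 of 8 were called lower than in DOX (*Irf7* and *Stat2*), as were 0.325% of genes. In either direction, 5 of 8 had an unadjusted limma p under 0.05, against 6.35%, and 4 of 8 did not overlap, against 10.3%. Of the 5, *Ifnar1* and *Ifnar2* were higher with IL-17A added, as was *Ifnar2* of the 4. The DOX libraries enter the comparisons with control and with DOX+IL-17A alike, so the rise with DOX and the decrease on adding IL-17A are not independent of each other.

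None of the members passed these limits with IL-17A alone. In limma 0 of 8 were called against control, where 0.00812% of genes were, and DESeq2 and edgeR's quasi-likelihood test also called 0. At an unadjusted limma p under 0.05 there were 2, *Ifnar2* and *Irf1*, where 3.08% of genes passed. The log2 fold change of *Irf7* was 0.21 with a 95% interval of -0.55 to 0.98, and that of *Stat2* was -0.24 (-0.82 to 0.34), which leaves room for changes of either sign. Set against IL-17A alone, DOX+IL-17A had none of the 8 called, where 9.84% of genes were. The largest log2 fold change was that of *Socs1* (1.25 ± 0.49, adjusted p = 0.106). *Irf7* had the lowest adjusted p (0.0536), at 1.11 ± 0.36, and passed without control replicate 1 (adjusted p = 0.0241) or 3 (0.0443). The change made by IL-17A in DOX-treated cells was then compared with the change it made in cells without DOX. In limma this difference between effects was called for 0% of genes and for none of the members. At an unadjusted p under 0.05 it held 4 of 8 members (*Ifnar1*, *Stat2*, *Irf1* and *Irf7*) and 4.51% of all genes. For *Irf7* it was -2.09 ± 0.49 (adjusted p = 0.368) and for *Stat2* -1.08 ± 0.37 (adjusted p = 0.901). DESeq2 called it for *Irf7* (-2.18, adjusted p = 0.0319), and over the alternatives the adjusted p for *Irf7* spanned 0.0319 to 0.997, so whether the decrease of *Irf7* needed DOX depended on the tool.

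**Figure D3:**
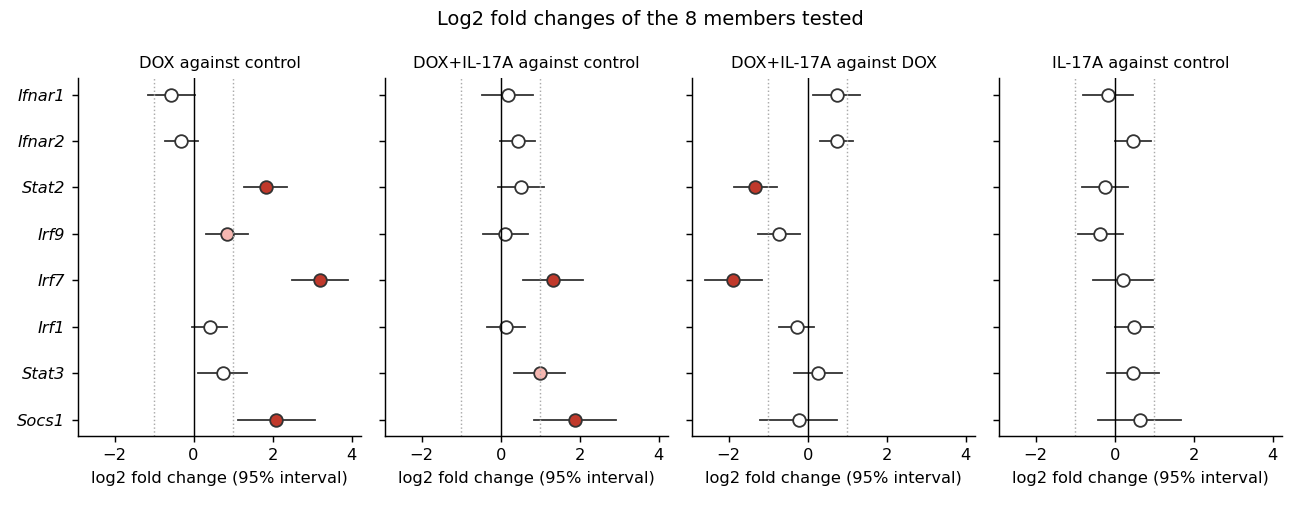
Log2 fold changes (x axis, dots) with 95% intervals (bars) of the 8 members tested (rows) in 4 comparisons (panels); dark points passed the adjusted p and the 2-fold limit, pale points the adjusted p alone, and dotted lines mark a 2-fold change. *Stat2*, *Irf7* and *Socs1* are dark for DOX against control, *Stat2* and *Irf7* are dark and below 0 for DOX+IL-17A against DOX, and no point is filled for IL-17A against control.

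Of 57 other genes of the pathway (receptor chains, ligands, Janus kinases, other STATs and IRFs, and negative regulators) 45 were listed and 44 tested. With DOX 6 (13.6%, against 9.15% of all tested genes) were called higher and 1 lower than in control (7 and 0 with scaling by library size). *Usp18*, whose product binds IFNAR2 and blocks signalling, rose by 2.92 ± 0.31 on the log2 scale, from 8.97 to 9.43 in control to 49.7 to 119 in DOX. *Irf5* (2.36), *Socs7* (1.40) and *Ifngr2*, a chain of the interferon gamma receptor (1.28), also passed, and the lymphoid kinase gene *Jak3* was lower (-1.08). Of these calls 3 were lost without control replicate 1, which had *Socs7* at 10.7 against 91.2 and 49.6 in the other controls and *Ifngr2* at 5.08 against 29.5 and 25.5. Without that library *Socs7* was at 0.55 (adjusted p = 0.185), *Ifngr2* at 0.54 (0.189) and *Jak3* at -0.92 (0.0758), while *Irf5* stayed at 1.81 (0.0202). *Il6*, encoding a ligand of the STAT3 pathway, had 0 reads in all control and IL-17A libraries, 32 to 76 in DOX (3.06 to 6.80 units) and 46 to 193 in DOX+IL-17A (7.49 to 19.2 units). No interferon gene of the list was in the table, so interferon expression was not analysed here.

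In DOX+IL-17A against control 4 of the 44 were called higher, near the 6.95% of all tested genes. These were *Il6*, the oncostatin M receptor gene *Osmr* at 1.95, *Ifngr2* at 1.44 and *Usp18* at 1.17. *Jak3* was called lower (-1.13), and with scaling by library size the counts were 4 higher and 0 lower. Without control replicate 1 *Osmr* (1.20, adjusted p = 0.123), *Ifngr2* (0.69, adjusted p = 0.113) and *Jak3* (-0.97, adjusted p = 0.0781) were not called. Relative to DOX, 2 were called lower in DOX+IL-17A, where 0.325% of all tested genes were, and none higher. *Usp18*, at 17.3 to 30.6 in DOX+IL-17A, fell by 1.74 on the log2 scale (adjusted p = 0.0203). Against IL-17A alone, DOX+IL-17A had *Il6* and *Usp18* higher and the receptor kinase gene *Tyk2* (-1.19) and the inhibitor gene *Socs2* (-1.10) lower. That share was near the 9.84% of all tested genes called in either direction, and scaling by library size gave 4 higher and 0 lower. None was called for IL-17A against control, where 0.00812% of all tested genes were. These counts rested on few libraries. For DOX against control 4 were called without DOX replicate 2 or 4. For DOX+IL-17A against control it was 1 without DOX+IL-17A replicate 2, 2 without DOX+IL-17A replicate 3 or control replicate 5, and 3 without DOX+IL-17A replicate 5 or any 1 DOX library. For DOX+IL-17A against DOX it was 0 without DOX replicate 3 or 4 or any 1 DOX+IL-17A library, and 1 without control replicate 5 or any 1 IL-17A library. For DOX+IL-17A against IL-17A it was 9 without control replicate 1 and 2 without IL-17A replicate 3.

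The lists of target genes, also chosen with earlier results of these data known, were then described. Of 32 tested type I interferon targets (ISGF3), 30 were called higher with DOX, where 9.15% of all tested genes were. Their median log2 fold change was 2.42, against 0.09 over all genes, with *Isg15* at 4.52, *Ifi44* at 4.46, *Cxcl10* at 4.31 and *Oas2* at 4.21. In DOX+IL-17A 15 of the 32 were still called above control, where 6.95% of all tested genes were, with a median of 1.05. Against DOX, all 32 had a negative log2 fold change on adding IL-17A (median -1.36). Of these 13 were called lower, where 0.325% of all tested genes were, led by *Rsad2* (-2.51), *Isg15* (-2.33), *Ifit1* (-2.31) and *Oas2* (-2.31). *Isg15*, which encodes a ubiquitin-like protein, was at 13.6 to 24.1 in control, 362 to 513 in DOX, 51.2 to 140 in DOX+IL-17A and 11.1 to 39.7 in IL-17A. Of 15 type II interferon targets, 14 were called higher with DOX, against the same 9.15% (median 2.50, *Gbp3* at 3.69 and the adhesion gene *Icam1* at 3.49). In DOX+IL-17A 8 were called lower than in DOX, against the same 0.325% (median -1.41, *Iigp1* at -2.72 and the peptide transporter gene *Tap1* at -1.93). *Icam1* was not among these 8, at -0.33 (adjusted p = 0.998). Without DOX replicate 1 and control replicate 1, 32 type I and 13 type II targets were called higher with DOX, and 20 and 9 lower on adding IL-17A.

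Of 19 STAT3 targets, 2 were called higher (*Cebpd* at 2.49 and *Fos* at 1.37) and 1 lower (*Vegfa* at -1.09) with DOX, and the median was 0.26. The 2 higher calls were 10.5% of the list, near the 9.15% of all tested genes. In DOX+IL-17A against control 5 of the 19 were called higher, where 6.95% of all tested genes were, and 1 was called lower. Relative to DOX, 2 were called higher in DOX+IL-17A and none lower. The share of all tested genes called higher in that comparison is not given here. The 2 were *Lcn2*, encoding an iron-scavenging protein (3.86), and *Saa3*, encoding an acute phase protein (3.84). Both are also known as targets of NF-kappa B and C/EBP factors. *Lcn2* was at 12.5, 19.7, 0.559 and 0.984 in DOX and at 150, 66.2 and 47.1 in DOX+IL-17A. *Saa3* was at 11.8, 9.63, 0.839 and 1.88 in DOX and at 138, 37.8 and 74.2 in DOX+IL-17A. For IL-17A against control none of the interferon or STAT3 targets was called, with medians of -0.02, 0.10 and 0.16. Still, *Lcn2* was at 12.9, 7.98 and 7.54 in control and at 84.7, 25.3 and 24.3 in IL-17A. *Cebpd* was at 4.40, 2.31 and 2.24 in control and at 37.7, 12.3 and 6.15 in IL-17A. The IL-17A and control libraries overlapped for *Saa3*, *Fos* and *Vegfa*.

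**Figure D4:**
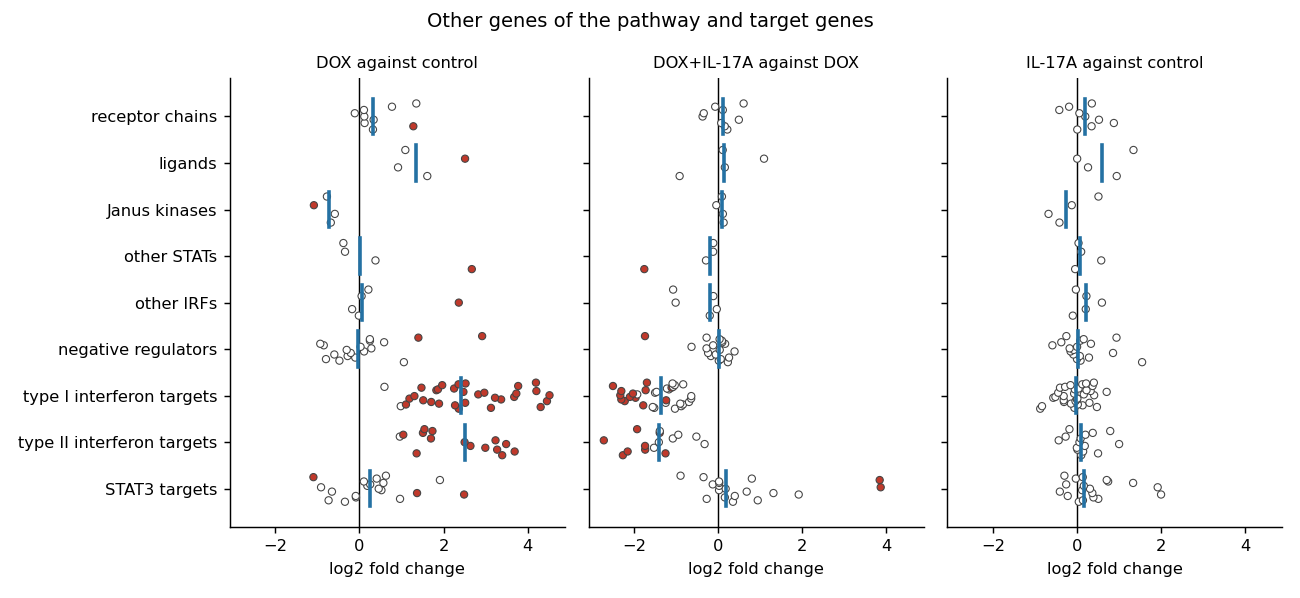
Log2 fold changes (x axis) of the tested genes of 9 lists (rows, 1 dot per gene) in 3 comparisons (panels); filled dots passed the adjusted p and the 2-fold limit and blue bars are list medians. Type I and type II interferon targets lie right of 0 for DOX against control (medians 2.42 and 2.50), left of 0 for DOX+IL-17A against DOX (-1.36 and -1.41) and around 0 for IL-17A against control.

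The genes whose log2 levels over the 13 libraries were most like those of a member differed between members. *Stat2* was most like *Apol9a* (r = 0.981), *Lgals9* (0.975) and *Apol9b* (0.971), and the 3 genes most like *Irf7* included *Mx2* and *Ifit3b* (both 0.976). *Irf9* was most like *Shisa5* (0.956), *Trim25* (0.940) and *Ifitm3* (0.938). *Stat3* was most like *Trim11*, *Phb2* and *Hmga2-ps1* (0.955 to 0.965) and *Socs1* most like *Dck*, *Dpm1* and *Rbm38* (0.970 to 0.973). *Irf1* was most like *Tmem220* (0.933), *Ifnar2* most like *Prss12* (0.902) and *Ifnar1* most like *Agps* (0.885). Among the members themselves *Stat2* correlated at 0.934 with *Irf7* and 0.931 with *Irf9*, but at 0.152 with *Stat3*. Within groups, as deviations from group means, *Stat2* correlated at 0.809 with *Irf9* and at -0.841 with *Stat3*. Control replicate 1 stood apart for all 3 genes. It had *Stat2* at 51.6 (26.9 and 30.8 in the other controls), *Irf9* at 90.8 (42.8 and 48.0) and *Stat3* at 53.1 (130 and 126). The part of this library in these within-group correlations was not tested. The 13 points share conditions, library depth and the libraries of 1 cell line, and these correlations are descriptions.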

How the data were processed

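4T1-Thy1.1 cells were plated in 12-well plates, and RNA was sequenced with a 3′ mRNA kit. Per the labels and the methods of the study, the authors trimmed reads with Trimmomatic, checked them with FastQC, mapped them to mm10 (STAR), assigned them to genes (featureCounts) and normalised the counts by TMM. The deposited signal values are these TMM-normalised values. The strand setting of the counting is not given in the sources used here, so reads of overlapping genes on opposite strands cannot be told apart. The study states at least 3 biological replicates. The labels do not name cultures, so p-values measure the spread between these libraries.

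The table had 13223 entries, of which 1 was a duplicate. Within each library low values came in whole steps, each worth 1 read (100% of 136686 values within 0.01 reads), so reads were recovered. limma (3.58.1) with trend was fitted on log2(value + 1) over all 13 libraries, with condition as the factor (9 residual degrees of freedom), for the 12319 genes kept by edgeR's filterByExpr, with Benjamini-Hochberg adjustment over all of them. Calls needed an adjusted p below 0.05 together with more than a 2-fold change; the difference between effects needed the former. Exact permutation tests were 2-sided. On simulated data with 200 genes changed 4-fold (DOX against control), 197 were recovered (98.5%) with 5 false calls. The changed genes were drawn from those above a limit on mean reads, and no library was simulated to stand apart as control replicate 1 did. Recovery was not scored for DOX+IL-17A against DOX, so the simulation does not give the power of that comparison. Replicates of a group differed by more than sampling noise. Alternatives were voom with limma, edgeR's quasi-likelihood test (4.0.16) and DESeq2 (1.42.0) on recovered reads, a pseudocount of 0.1, other filters, scaling by library size only, a replicate block, a fit of only the groups compared, calls by adjusted p, and leaving out each library. The averaged effect of IL-17A and a fit without DOX replicate 1 and control replicate 1 were added after the data were seen. R 4.3.3 and python 3.11.15 were used.

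The members and lists were chosen with earlier results of these data known. Genes named from the lists are those called in a comparison, up to 4 per list and comparison by size of change, and likeness is the Pearson correlation of log2 values. Correlations between comparisons that share libraries were not computed. Motifs were searched on both strands. Proteins of the members are not shown.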

Additional observations from a re-analysis of the deposited data

Results flagged for a closer look

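*Socs3* in DOX replicate 1 (1.2073 normalised units, 15 reads) lay far from the other 3 DOX libraries, which had 0 reads. With the other libraries at 0 the gap is the whole range of the group whatever the remaining value is, so the comparison carries little information for a gene at this level, and *Socs3* had a single library above 0 in each of the other groups too. DOX replicate 1 also had the highest sum of muscle and red blood cell markers (282.9), and the part of that in the value of *Socs3* was not tested.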

How the results depend on the processing

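The replicate number did not pair the libraries throughout: same-numbered libraries of different groups correlated in their deviations from group means at 0.151 on average (13 pairs, of which 8 were above 0.1; -0.175 to 0.491), against -0.0368 for the 50 other pairs (13 above 0.1). The 3 pairs of DOX+IL-17A and IL-17A were all above 0.1 (0.168 to 0.355), and with the block that comparison still had 0 members called. With the replicate block, members called went from 2 to 0 in DOX+IL-17A against DOX (*Irf7* -1.74, adjusted p = 0.147; *Stat2* -1.05, adjusted p = 0.269) and stayed at 3 for DOX against control. With the block, other pathway genes called went from 7 to 4 for DOX against control, from 5 to 2 for DOX+IL-17A against control and from 2 to 0 for DOX+IL-17A against DOX. For members in DOX+IL-17A against control the count of 2 became 1 with voom, with edgeR and without DOX replicate 1 and control replicate 1, and 0 with only the groups compared, and 3 with scaling by library size, where *Stat3* was gained (1.16). For DOX against control the count of 3 became 4, with *Irf9*, under scaling by library size (1.01) and without those 2 libraries (1.20). The count of 2 in DOX+IL-17A against DOX became 1 with a pseudocount of 0.1 and with edgeR. The count of 0 in DOX+IL-17A against IL-17A became 1 with scaling by library size, with DESeq2 and without DOX replicate 1 and control replicate 1. For the IL-17A effect with DOX minus that without, DESeq2 called 1 member, *Irf7* (-2.18, adjusted p = 0.0319), where limma called 0. Other pathway genes called in DOX+IL-17A against control went from 5 to 3 with a pseudocount of 0.1 and with edgeR, 2 with voom and 1 with only the groups compared, in DOX+IL-17A against DOX from 2 to 1 with a pseudocount of 0.1 and with edgeR, and in DOX+IL-17A against IL-17A from 4 to 7 with DESeq2 and 8 without DOX replicate 1 and control replicate 1. Scaling by library size only moved the median of all genes by 0.15 for DOX against control and by 0.19 for DOX+IL-17A against IL-17A. With each library left out, members called ranged from 3 to 4 for DOX against control, 1 to 2 for DOX+IL-17A against control, 0 to 2 for DOX+IL-17A against DOX and 0 to 1 for DOX+IL-17A against IL-17A. Other pathway genes called ranged over 4 to 10, 1 to 7, 0 to 2 and 2 to 9 for the same comparisons. Among values that were not called, the sign turned for 7 when 1 library was left out. Their ranges were -0.15 to 0.084 for *Ifnar2* in DOX+IL-17A against IL-17A (0.18 with scaling by library size), -0.43 to 0.031 for *Stat2* and -0.026 to 0.46 for *Irf7* in IL-17A against control, -0.11 to 0.35 for *Irf1* and -0.093 to 0.44 for *Irf9* in DOX+IL-17A against control, and -0.52 to 0.17 for *Socs1* in DOX+IL-17A against DOX. For *Stat3* the difference between effects ranged from -0.43 to 0.20. Without both control replicate 1 and DOX replicate 1 it was 0.19, and *Stat2* in IL-17A against control was 0.031 and *Irf1* in DOX+IL-17A against control -0.11. The causes were not tested. Depth limits *Socs1* and *Socs3*, which had at most 86 and 15 reads in a library.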
